A study of Homo sapiens with 15 samples.

Results

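The oncofetal genes around the let-7 microRNAs were followed across 5 human ovarian cancer lines: the RNA-binding proteins IGF2BP1, IGF2BP2 and IGF2BP3, the chromatin proteins HMGA1 and HMGA2, and the growth factor IGF2. They were chosen by symbol from a list of 8, of which 6 matched a gene of the deposited table of 16604 genes. LIN28B and H19 are not analysed here. The genes were proposed with earlier results of these data known. They also had to be in the table, whose name refers to a threshold of unstated rule, so counts below are over 6 genes and not over the list.

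OVCAR4 cells come from a high-grade serous carcinoma of the ovary and are a widely used line. Their platinum-sensitive parental culture, Ovcar4Parental, was set against 4 resistant descendants, and each of the 5 lines had 3 biological replicates. Ov4Cis was selected with cisplatin and Ov4Carbo with carboplatin, by stepwise dosing until the IC50 had grown between 2 and 10 times. Ov4Carbo4 and Ov4Carbo7 were each grown from a single Ov4Carbo cell, so each stands for 1 clone. The labels give the same culture medium for all 5 lines and name no drug at harvest. RNA was captured by polyA, and levels are log2 RPKM (reads scaled for gene length and library size, on a log2 scale), after the authors' conditional quantile normalization.

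The oncofetal genes are active in the embryo, silent or low in most adult tissue and switched on again in many carcinomas. IGF2BP proteins bind mRNAs, many of them carrying the m6A mark, and protect or localise them. HMGA1 and HMGA2 bend AT-rich DNA and open chromatin. Mature let-7 microRNAs repress HMGA2 and IGF2BP mRNAs in differentiated cells, and LIN28 proteins block the maturation of let-7. IGF2, a fetal growth factor made from an imprinted locus, was the mRNA on which the IGF2BP family was named.

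The let-7 family is shown first because matches to its seed, bases 2 to 8 of the mature strand, are searched for below. RefSeq (GRCh38.p14) lists 12 let-7 and miR-98 loci giving 9 distinct mature strands, and all share 1 seed, GAGGUAG. Mature let-7 itself was not measured, since polyA libraries read the host transcripts and not the processed strand. The strands below come from inside 4 measured host transcripts: let-7c from MIR99AHG, let-7a, let-7d and let-7f from MIRLET7A1HG, let-7a and let-7b from MIRLET7BHG, and let-7f and miR-98 from the gene HUWE1. Capitals mark the seed.
let-7a-5p: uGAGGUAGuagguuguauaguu
let-7b-5p: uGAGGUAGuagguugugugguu
let-7c-5p: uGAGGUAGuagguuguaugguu
let-7d-5p: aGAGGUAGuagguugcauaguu
let-7f-5p: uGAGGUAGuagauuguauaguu
miR-98-5p: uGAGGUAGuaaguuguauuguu

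The 3′ untranslated regions of the 6 genes were searched for CTACCTC, the complement of that seed, on the transcript strand of the GENCODE v29 principal transcripts (GRCh38). IGF2BP1 held 4 matches and HMGA2 held 4. IGF2BP2, IGF2BP3 and HMGA1 held 1 each, and IGF2 held 0. A match was found in 9.95% of 12859 genes of the table. Among genes with a 3′ region of 80 to 120% of the length of the IGF2BP1 region, 0.538% had 4 or more, and for HMGA2 the share was 0.134%. The windows below show 1 match of each gene, with the seed complement in capitals, because the pair with 4 matches moved in opposite directions in Ov4Carbo7. A match is a sequence feature and was not tested as a site.
IGF2BP1, chr17:49053699-49053722, plus strand: agcagtgctagtaaCTACCTCaca
HMGA2, chr12:65965799-65965822, plus strand: atcaaaacacactaCTACCTCtta
IGF2BP2, chr3:185644218-185644241, minus strand: acacacagaagaagCTACCTCagg
IGF2BP3, chr7:23311793-23311816, minus strand: gcatttttactcaaCTACCTCagg
HMGA1, chr6:34245830-34245853, plus strand: cctctgttcacaaaCTACCTCtgg

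The starts of IGF2BP2, IGF2BP3 and HMGA1 are shown because only these 3 members had a promoter in the RefSeq table. Over the samples IGF2BP2 correlated with IGF2BP3 (Pearson's r 0.82) and with HMGA1 (0.70). IGF2BP3 and HMGA1 were less alike (0.42). Each stretch is the 250 bases before the first listed start (GRCh38.p14). Capitals mark the E-box CACGTG, the GC box GGGCGG and the CCAAT box CCAAT, searched on both strands. IGF2BP3 held 2 E-boxes, a motif found in 6.32% of 34943 promoter stretches of the same length. IGF2BP2 held 7 GC boxes, overlapping matches counted separately, and HMGA1 held 5, where 42.5% of stretches held any. No CCAAT box, found in 32.0% of stretches, was among the letters of these 3 windows. The later listed starts of IGF2BP2 and HMGA1, not printed, held 1 each.
IGF2BP2 promoter, chr3:185825043-185825292, minus strand: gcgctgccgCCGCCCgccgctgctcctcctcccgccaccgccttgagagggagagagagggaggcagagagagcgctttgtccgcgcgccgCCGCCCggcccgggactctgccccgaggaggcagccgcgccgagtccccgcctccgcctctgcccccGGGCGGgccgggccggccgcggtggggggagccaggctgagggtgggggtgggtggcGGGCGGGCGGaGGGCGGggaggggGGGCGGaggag
IGF2BP3 promoter, chr7:23470492-23470741, minus strand: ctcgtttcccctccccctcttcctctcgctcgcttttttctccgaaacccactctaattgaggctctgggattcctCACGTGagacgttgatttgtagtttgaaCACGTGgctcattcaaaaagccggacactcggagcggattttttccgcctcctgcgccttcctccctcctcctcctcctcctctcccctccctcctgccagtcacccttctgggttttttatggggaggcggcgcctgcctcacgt
HMGA1 promoter, chr6:34236623-34236872, plus strand: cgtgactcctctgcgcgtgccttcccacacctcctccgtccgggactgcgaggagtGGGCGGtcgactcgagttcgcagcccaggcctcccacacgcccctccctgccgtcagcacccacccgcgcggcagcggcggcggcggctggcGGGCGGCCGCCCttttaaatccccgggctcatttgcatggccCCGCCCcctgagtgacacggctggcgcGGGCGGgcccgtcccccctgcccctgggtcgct

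All 15 samples had a median of 2.8 log2 RPKM. The depth per sample is unknown, and precision is judged from replicate spread alone. Replicates are separate samples of 1 line, and p-values measure the spread between them. The sample titles carry numbers in 2 series, and the labels do not call these batches. The first series holds Ov4Carbo replicate 1, Ov4Carbo4 and Ov4Carbo7, and the second holds the other 8 samples, so clones and parental line cannot be told apart from the series. Ov4Carbo replicate 1 was nearer to the Ov4Carbo7 samples (root-mean-square difference 0.89 log2 units per gene) than replicates 2 (1.13) and 3 (1.07). It was not nearer to the Ov4Carbo4 samples, also of the first series (1.07, against 1.06 and 1.01). To Ov4Cis, of the second series, it was nearer (1.143, against 1.245 and 1.242). Its smallest difference was from the other samples of its own line (0.74). All 11 serous and epithelial markers could be read, and 8 were called in Ov4Cis against the parental line (7 lower), where 15.9% of all genes were. Ov4Carbo7 had 6 called (6 lower), against 17.0%, and Ov4Carbo4 had 5 (4 lower), against 15.1%. Ov4Carbo had 2 (1 lower), against 12.7%. EPCAM stood at 5.98 in Ovcar4Parental, 1.17 in Ov4Cis and 3.01 in Ov4Carbo7, and at 5.32 in Ov4Carbo and 5.23 in Ov4Carbo4. The lineage factor PAX8 stayed between 5.85 and 6.74 on average in all 5 lines and SOX17 between 6.65 and 7.76, WT1 was low throughout (-5.07 to -1.52), and the keratin KRT7 stood at 8.28 in Ovcar4Parental and -0.57 in Ov4Cis. Of the leukocyte and endothelial markers, 3 of 8 could be read. Line means of CDH5 ran from 2.15 in Ov4Carbo to 5.13 in Ov4Cis and those of VWF from -1.65 to -0.18. PTPRC, CD3E, CD68, LYZ and PECAM1 are not analysed here. The part of these marker differences in the results below was not tested.

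A gene was called between a pair of lines when its limma adjusted p (Benjamini-Hochberg over all 16604 genes) was under 0.05 and its change at least 1 log2 unit. All 6 genes differed among the 5 lines in limma's moderated F-test at an adjusted p under 0.05, as did 76.9% of all genes. Of the 6, 5 were called in at least 1 of 8 comparisons, where 38.6% of all genes were. IGF2BP3 was the exception. The line means of IGF2BP1 spanned 5.45 log2 units, a larger span than in 97.0% of genes, and those of IGF2 spanned 2.97 (larger than in 89.9%). HMGA2 spanned 1.42, HMGA1 1.38, IGF2BP2 1.2 and IGF2BP3 0.57, against a median span of 0.86 over all genes. Per unit length, HMGA1 was the most abundant, above 94.3% of genes in Ov4Cis and 99.0% in Ovcar4Parental. IGF2 was among the lowest, above 1.79% of genes in Ov4Carbo7 and 8.19% in Ov4Cis.

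**Figure D1:**
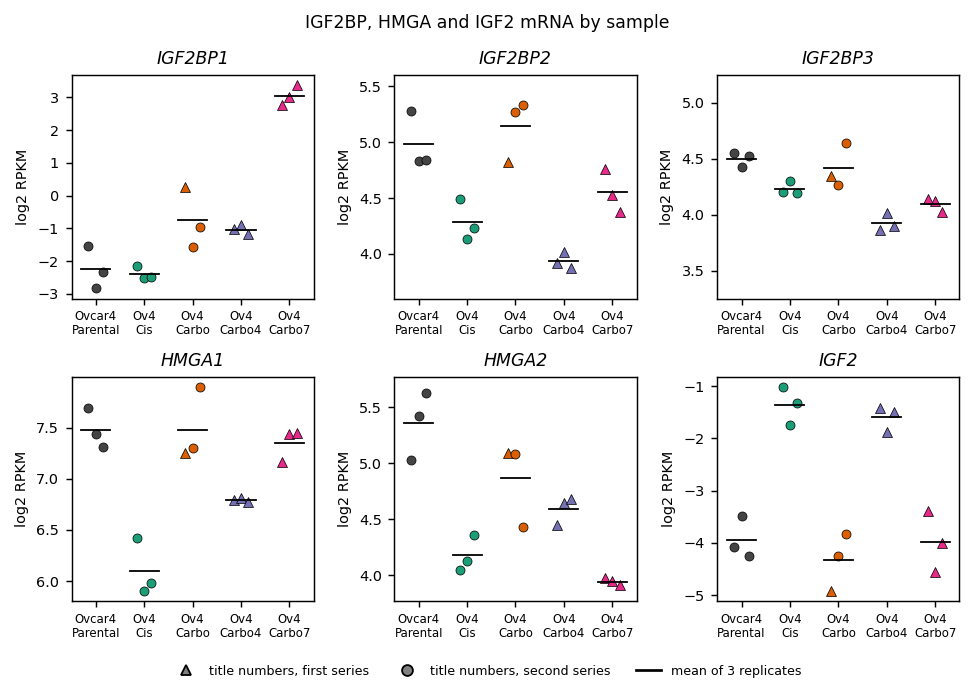
Level of each gene in the 15 samples (log2 RPKM, a separate vertical scale per gene), with 3 replicates per line as points, the line mean as a bar, and the series of title numbers as the point shape. IGF2BP1 reaches 2.78 to 3.39 in Ov4Carbo7 and IGF2 is raised in Ov4Cis and Ov4Carbo4, while HMGA2 is highest in Ovcar4Parental.

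IGF2BP1 was raised most in the clone Ov4Carbo7. It encodes the family member that is most tightly restricted to fetal tissue. In Ovcar4Parental its replicates 1 to 3 stood at -1.53, -2.83 and -2.32 log2 RPKM. In Ov4Cis they stood at -2.15, -2.53 and -2.49, inside the parental range. These 6 levels were 0.14 to 0.345 RPKM. Ov4Carbo gave 0.26, -1.57 and -0.94, and Ov4Carbo4 gave -1.02, -0.91 and -1.18. Ov4Carbo7 gave 2.78, 3.0 and 3.39, or 6.87 to 10.5 RPKM. All 3 Ov4Carbo7 values lay above the other 12, the highest of which was 0.26.

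Against Ovcar4Parental, IGF2BP1 in Ov4Carbo7 was 39.1-fold higher (log2 fold change 5.29, SE 0.40, limma adjusted p = 1e-06). It was 14-fold higher than in its source line Ov4Carbo (log2 fold change 3.81, limma adjusted p = 3.38e-05) and 17.1-fold higher than in the other clone, Ov4Carbo4 (4.10, adjusted p = 5.2e-06). The SE was 0.40 in every comparison of this gene. With Ov4Carbo replicate 1, the reference sample of the first title series, the IGF2BP1 difference between Ov4Carbo7 and Ov4Carbo was 2.80 log2 units. With a term for the title series, the difference between Ov4Carbo7 and the parental line was 3.77 (limma adjusted p = 7.61e-04).

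The calls of the smaller IGF2BP1 differences from the parental line were lost when single libraries were left out. Ov4Carbo was above the parental line by 1.48 log2 units (limma adjusted p = 0.0139), with overlapping values. Without Ov4Carbo replicate 1 the difference was 0.97, and without Ovcar4Parental replicate 2 it was 1.17 (limma adjusted p = 0.0648), so neither was called. Ov4Carbo4 was above the parental line by 1.19 (limma adjusted p = 0.0321). The call was lost without Ovcar4Parental replicate 2, at 0.89 (limma adjusted p = 0.132). It was also lost without Ovcar4Parental replicate 3 or any replicate of Ov4Carbo4, at 1.13 to 1.26 (limma adjusted p from 0.0595 to 0.0871). In those fits the change stayed above 1 log2 unit, and its SE was 0.47 against 0.40 with all samples. A term for the title series turned the sign, to -0.32. Against its source Ov4Carbo, Ov4Carbo4 stood at -0.28 (limma adjusted p = 0.593), which became a call against replicate 1 of Ov4Carbo alone, at -1.29 (adjusted p = 0.037), and stood at 0.22 without that replicate. Ov4Cis was 1.63 below Ov4Carbo (limma adjusted p = 0.00788) and did not differ from the parental line beyond its error (-0.16, adjusted p = 0.798).

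IGF2BP2, the member that persists in adult tissue, was expressed in all 5 lines and was lowest in Ov4Carbo4. Its values were 5.28, 4.83 and 4.84 log2 RPKM in Ovcar4Parental and 4.82, 5.27 and 5.33 in Ov4Carbo, which overlapped. Ov4Carbo7 gave 4.76, 4.53 and 4.37, and Ov4Cis 4.49, 4.13 and 4.23. Ov4Carbo4 gave 3.92, 4.02 and 3.87, below every other sample. IGF2BP2 fell in Ov4Carbo4 by 1.2 against Ov4Carbo (SE 0.17, limma adjusted p = 1.61e-04) and by 1.05 against the parental line (adjusted p = 3.64e-04). Against the sample of Ov4Carbo from the same title series the change was -0.88, and against the parental line it was -0.90 without Ovcar4Parental replicate 1 and -0.57 with a term for the title series, all short of 1 log2 unit. In Ov4Cis it stood 0.70 below the parental line (adjusted p = 0.00566), with no overlap and no call.

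IGF2BP3, a marker of aggressive carcinomas of several organs, had the narrowest range of the 6. Its values ran from 4.43 to 4.55 log2 RPKM in Ovcar4Parental, from 4.27 to 4.64 in Ov4Carbo and from 4.19 to 4.30 in Ov4Cis. Ov4Carbo7 gave 4.02 to 4.14 and Ov4Carbo4 gave 3.86 to 4.01. No comparison reached 1 log2 unit, the largest being -0.57 in Ov4Carbo4 against the parental line (SE 0.10, limma adjusted p = 7.9e-04), which was below the 3 parental values without overlap. The gene MALSU1 overlaps IGF2BP3 on the opposite strand, and the counting strand is not given in the sources used here.

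HMGA1 was the most abundant of the 6 and was lowest in the cisplatin-selected line. Ovcar4Parental gave 7.69, 7.44 and 7.31 log2 RPKM, Ov4Carbo 7.25, 7.30 and 7.89, and Ov4Carbo7 7.16, 7.44 and 7.45. These 3 lines overlapped. Ov4Carbo4 gave 6.79, 6.81 and 6.77, below all 9 of those values. Ov4Cis gave 6.42, 5.90 and 5.98, below every other sample. HMGA1 RNA fell in the cisplatin line by 1.38 against the parental line (2.6-fold, SE 0.18, limma adjusted p = 7.89e-05) and by 1.38 against Ov4Carbo (adjusted p = 1.11e-04). Both calls were kept under each alternative in which they were fitted, at -1.54 to -1.17. In Ov4Carbo4 the difference from the parental line was -0.69 (adjusted p = 0.0101), which was not called.

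HMGA1 has 8 named processed copies in GENCODE v29, and 5 of them are in the table. All 5 were lowest in Ov4Cis, as HMGA1 was. HMGA1P3 stood at 4.98 log2 RPKM in Ovcar4Parental and 3.03 in Ov4Cis, and HMGA1P1 at 2.61 and 1.00. Pearson's r with HMGA1 over the 15 samples, which share 5 lines, ran from 0.90 for HMGA1P3 to 0.96 for HMGA1P1. Reads from these copies and from HMGA1 may not be separable, so the level of HMGA1 is uncertain by that share.

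HMGA2 was lower in Ov4Cis and Ov4Carbo7 than in the parental line. It is a classic let-7 target and a chromatin regulator of mesenchymal and stem-like states. Ovcar4Parental gave 5.03, 5.43 and 5.63 log2 RPKM, and Ov4Carbo 5.09, 5.08 and 4.43. Ov4Carbo4 gave 4.45, 4.65 and 4.68, and Ov4Cis 4.05, 4.13 and 4.36. Ov4Carbo7 gave 3.97, 3.95 and 3.91, the 3 lowest of the 15 values. HMGA2 fell in Ov4Carbo7 by 1.42 (2.67-fold, SE 0.19, limma adjusted p = 6.73e-05) and in Ov4Cis by 1.19 (2.27-fold, adjusted p = 2.89e-04) against the parental line. Both calls were kept under each alternative fitted. In Ov4Carbo4 the difference was -0.77 (adjusted p = 0.0057), which became a call with a term for the title series, at -1.11 (adjusted p = 0.0261). Against its source Ov4Carbo, Ov4Carbo7 stood at -0.92 (adjusted p = 0.00224). That became a call, at -1.14, without Ov4Carbo replicate 3, the low value of that line, and at -1.15 against replicate 1 alone.

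RPSAP52, a transcribed pseudogene on the opposite strand of HMGA2, ranked first in the same line as HMGA2 and last in the same line. Its line means were 0.70 in Ovcar4Parental, -0.37 in Ov4Carbo4, -2.07 in Ov4Cis, -2.18 in Ov4Carbo and -4.29 in Ov4Carbo7, in log2 RPKM. Without strand in the counting, reads of this pair cannot be told apart where they overlap. AC090673.1, another transcript on that strand, was highest in Ov4Carbo4 (-1.78) and lowest in Ov4Carbo7 (-4.56).

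IGF2 was raised in Ov4Cis and Ov4Carbo4 at a low level. Ovcar4Parental gave -4.08, -3.49 and -4.25 log2 RPKM, Ov4Carbo -4.92, -4.25 and -3.83, and Ov4Carbo7 -3.38, -4.55 and -4.01. These 3 lines overlapped. Ov4Cis gave -1.02, -1.75 and -1.32, and Ov4Carbo4 -1.41, -1.88 and -1.49. The 6 values of Ov4Cis and Ov4Carbo4 lay above the other 9, and in RPKM they were 0.271 to 0.492 against 0.0331 to 0.0959. IGF2 in Ov4Cis was 5.96-fold above the parental line (log2 fold change 2.58, SE 0.34, limma adjusted p = 6.72e-05) and 7.83-fold above Ov4Carbo (2.97, adjusted p = 3.06e-05). In Ov4Carbo4 it was 5.08-fold above the parental line (2.34, adjusted p = 1.58e-04) and 6.67-fold above Ov4Carbo (2.74, adjusted p = 6.42e-05). Ov4Carbo7 was 2.39 below Ov4Carbo4 (adjusted p = 8.48e-05) and did not differ from the parental line beyond its error (-0.04, adjusted p = 0.934). With a term for the title series the 2 differences of Ov4Carbo4 were larger, 3.23 against the parental line and 3.32 against Ov4Carbo. On the log2(RPKM + 1) scale, which damps low values, these 5 changes were between 0.32 and 0.41 in size and none was called. The gene overlaps INS-IGF2 on the same strand and IGF2-AS on the other, and reads shared with them may be uncertain.

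**Figure D2:**
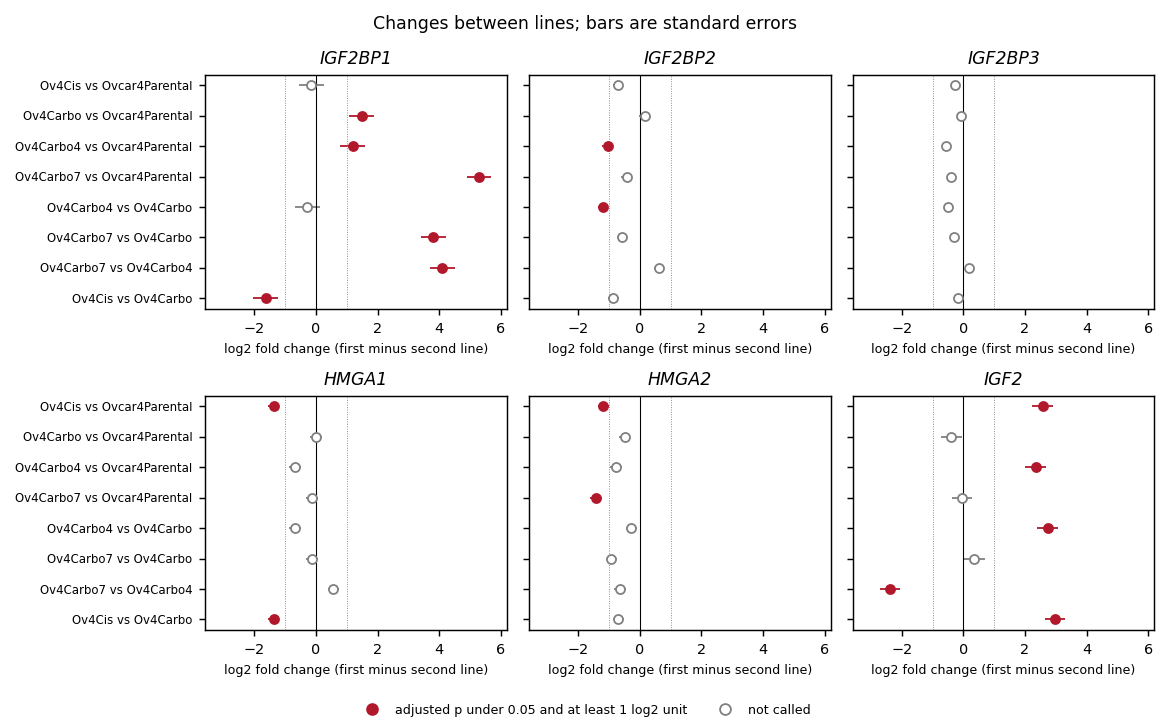
Log2 fold change of each gene (horizontal axis, first-named minus second-named line) in 8 comparisons, with bars of 1 standard error, red where called and open where not. The largest is IGF2BP1 in Ov4Carbo7 against Ovcar4Parental, at 5.29, while no point of IGF2BP3 reaches 1 log2 unit on either side.

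Counted by comparison, the 6 genes gave 3 calls in Ov4Cis against the parental line (IGF2 higher, HMGA1 and HMGA2 lower), where 15.9% of all genes were called. The replicates of 5 of the 6 did not overlap there, as was so for 53.4% of all genes. Ov4Carbo against the parental line gave 1 call (IGF2BP1 higher), with 12.7% of all genes called, and 0 of 6 were without overlap, against 38.4%. Ov4Carbo4 gave 3 (IGF2BP1 and IGF2 higher, IGF2BP2 lower), against 15.1%, with 6 separate, against 58.1%. Ov4Carbo7 gave 2 (IGF2BP1 higher, HMGA2 lower), against 17.0%, with 4 separate, against 56.5%. These 4 comparisons share the parental samples.

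Between the clones and their source, Ov4Carbo4 gave 2 calls (IGF2 higher, IGF2BP2 lower), against 14.2% of all genes, with 4 of 6 separate, against 49.6%. Ov4Carbo7 gave 1 (IGF2BP1 higher), against 13.3%, with 4 separate, against 42.3%. Ov4Carbo7 against Ov4Carbo4 gave 2 (IGF2BP1 higher, IGF2 lower), against 20.9%, with 6 separate, against 67.3%. Ov4Cis against Ov4Carbo gave 3 (IGF2 higher, IGF2BP1 and HMGA1 lower), against 13.8%, with 5 separate, against 41.0%. These comparisons share samples of Ov4Carbo or Ov4Carbo4.

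Among the 6, IGF2BP2 and IGF2BP3 were the most alike over the 15 samples (Pearson's r 0.82), and HMGA1 and IGF2 the most opposed (-0.81). These are descriptions over samples that share 5 lines. IGF2BP1 was most like EEIG1 (0.97) and ENO2, a neuronal form of the glycolytic enzyme enolase (0.96), among 4462 genes with a highest line mean of at least log2 RPKM 1 and a span of line means of at least 1. ENO2 stood at 2.07 log2 RPKM in Ovcar4Parental and 5.44 in Ov4Carbo7. IGF2BP2 was most like CAPG, an actin-capping protein (0.98). IGF2BP3 was most like USP25 (0.90) and UPK3B (0.90), HMGA1 like PROSER2 (0.97) and its copy HMGA1P1 (0.96), and HMGA2 like SLC4A11 (0.95) and FHDC1 (0.93).

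Among the let-7 host transcripts the largest differences were those of MIR99AHG in Ov4Carbo4. MIR99AHG, which carries let-7c, stood at 0.98, 1.47 and 1.40 log2 RPKM in Ovcar4Parental and at -3.68, -4.55 and -5.07 in Ov4Carbo4. In Ov4Cis, Ov4Carbo and Ov4Carbo7 its values ran from 1.57 to 2.25. The 3 Ov4Carbo4 values were the only ones under 0. MIR99AHG fell in Ov4Carbo4 by 6.32 against Ov4Carbo (SE 0.29, limma adjusted p = 2.94e-08) and by 5.72 against the parental line (adjusted p = 4.17e-08). MIRLET7A1HG rose in Ov4Carbo4 against Ov4Carbo by 1.14 (adjusted p = 0.00552). MIRLET7BHG and HUWE1 were called in no comparison. HMGA2, with 4 seed matches, stood in Ov4Carbo4 at -0.77 against the parental line, called only with the title series term, and at -0.28 against Ov4Carbo, not called. IGF2BP1, also with 4 matches, stood there at 1.19 against the parental line, a call lost in several alternatives. Against Ov4Carbo it stood at -0.28, not called. A link of either gene to MIR99AHG was not tested.

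Of the 17 genes of let-7 processing and decay that could be read, 16 were called in none of the 8 comparisons. DROSHA, DICER1 and the decay nuclease DIS3L2 are among them. Over all genes 38.6% were called in at least 1 comparison. In the F-test 14 of the 17 differed among the lines, against 76.9% of all genes, so the lack of a call does not mean no difference. LIN28A, the paralog of LIN28B, is not analysed here. The called gene was TUT7, which adds uridines to let-7 precursors. It fell in Ov4Cis from 4.31, 3.86 and 4.03 log2 RPKM in the parental line to 2.56, 2.55 and 2.52 (-1.52, SE 0.13, limma adjusted p = 1.35e-06). The related enzyme TUT4, which acts with LIN28A, was not called anywhere. DICER1 stood at -0.81 in Ov4Carbo (limma adjusted p = 0.00109) and -0.86 in Ov4Carbo4 (adjusted p = 4.75e-04) against the parental line. Neither overlapped the parental values. In Ov4Cis it stood at -0.07 and in Ov4Carbo7 at -0.04, with overlap.

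**Figure D3:**
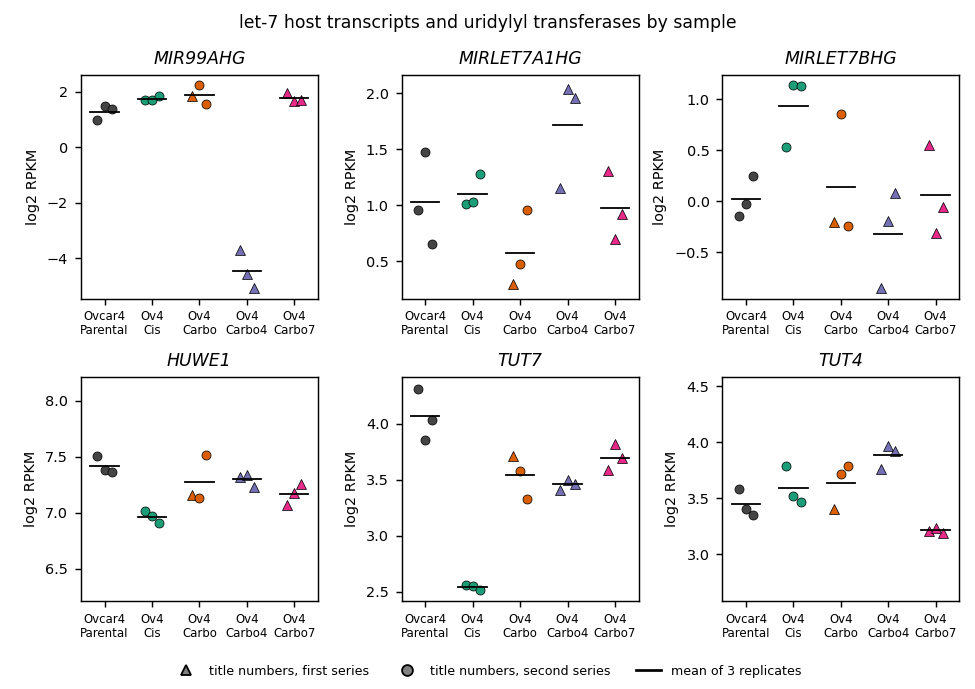
Level of 4 let-7 host transcripts and of TUT7 and TUT4 in the 15 samples (log2 RPKM, a separate vertical scale per gene), drawn as points by replicate with the line mean as a bar. MIR99AHG is near -4.43 on average in Ov4Carbo4 and at 0.98 or more in every other sample, and TUT7 is lowest in Ov4Cis.

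The list of other let-7 targets, written from general knowledge, moved both ways. In Ov4Carbo4 against Ov4Carbo 5 of 20 were higher and 0 lower, where 14.2% of all genes were called in either direction. The median change there was 0.40 against 0.04 over all genes. In Ov4Carbo7 against Ov4Carbo4 0 were higher and 5 lower (median -0.11, all genes -0.05), where 20.9% of all genes were called in either direction. These share the Ov4Carbo4 samples. PBX3, a homeodomain cofactor, rose in Ov4Carbo4 by 1.88 against Ov4Carbo (SE 0.16, limma adjusted p = 3.6e-06), from 1.55, 1.31 and 1.18 log2 RPKM to 3.23, 3.17 and 3.30. PRTG, an immunoglobulin-family receptor of the early embryo, rose by 1.27 (adjusted p = 6.47e-05). THBS1, a matrix glycoprotein, was lowest in Ov4Carbo, where it fell by 3.17 against the parental line (adjusted p = 0.00109). Against the parental line 1 of 20 was higher and 2 lower in Ov4Cis, and 0 higher and 4 lower in Ov4Carbo. For Ov4Carbo4 the counts were 3 and 1, and for Ov4Carbo7 0 and 3. The shares called over all genes were 15.9%, 12.7%, 15.1% and 17.0%, and these counts are not far from them. IGDCC3, MYCN and THBS1, higher in Ov4Carbo4 than in Ov4Carbo, were among the 4 lower in Ov4Carbo.

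Of the IGF receptors, INSR, which binds IGF2 through one of its splice forms, varied most. It stood at 4.11, 3.30 and 3.51 log2 RPKM in Ovcar4Parental, 1.95, 1.97 and 2.02 in Ov4Cis and 1.23, 1.25 and 1.37 in Ov4Carbo4. Ov4Carbo gave 2.94 to 3.27 and Ov4Carbo7 4.13 to 4.23. The 6 INSR values of Ov4Cis and Ov4Carbo4, the lines with the higher IGF2, were the lowest of the 15. Against the parental line INSR fell by 1.66 in Ov4Cis (SE 0.17, limma adjusted p = 7.53e-06) and by 2.36 in Ov4Carbo4 (adjusted p = 5.57e-07). IGF1R, the main signalling receptor, was called in no comparison, with line means of 4.51 to 5.08, and nor was IGF2R, the receptor that clears IGF2, with 5.06 to 5.95.

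Genes of the IGF list (ligands, receptors, substrates, binding proteins and their partners) were called lower more often than higher in each comparison with the parental samples, which the 4 comparisons share. Of 16 genes of this list, 7 were lower and 1 higher in Ov4Cis, 4 lower and 2 higher in Ov4Carbo, 8 lower and 0 higher in Ov4Carbo4, and 5 lower and 3 higher in Ov4Carbo7. Over all 16604 genes 1230 were lower and 1405 higher in Ov4Cis, 1150 and 956 in Ov4Carbo, 1279 and 1234 in Ov4Carbo4, and 1286 and 1538 in Ov4Carbo7. The lower calls include the receptor INSR and the receptor substrates IRS1 and IRS2. The median changes were -0.27, -0.28, -1.26 and 0.15, against 0.04, 0.03, 0.07 and 0.02 over all genes, so that in Ov4Carbo7 the median was above 0 with more genes lower than higher. IGFBP3, the main IGF carrier of serum, stood at 6.0, 6.62 and 6.55 log2 RPKM in Ovcar4Parental and at 1.71 to 5.05 in the 12 resistant samples. Its falls ran from -1.84 in Ov4Carbo7 (SE 0.41, limma adjusted p = 0.00305) to -4.19 in Ov4Carbo4 (adjusted p = 7.7e-06). IGFBP5 fell from 2.25, 3.75 and 3.07 to between -6.60 and -2.72 in the resistant samples, a range where the size of a log2 change is uncertain. STC2, an inhibitor of the protease that frees IGF from its binding proteins, fell in Ov4Cis by 3.23 (SE 0.50, adjusted p = 2.8e-04) and in Ov4Carbo4 by 2.46 (adjusted p = 0.00203) against the parental line.

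**Figure D4:**
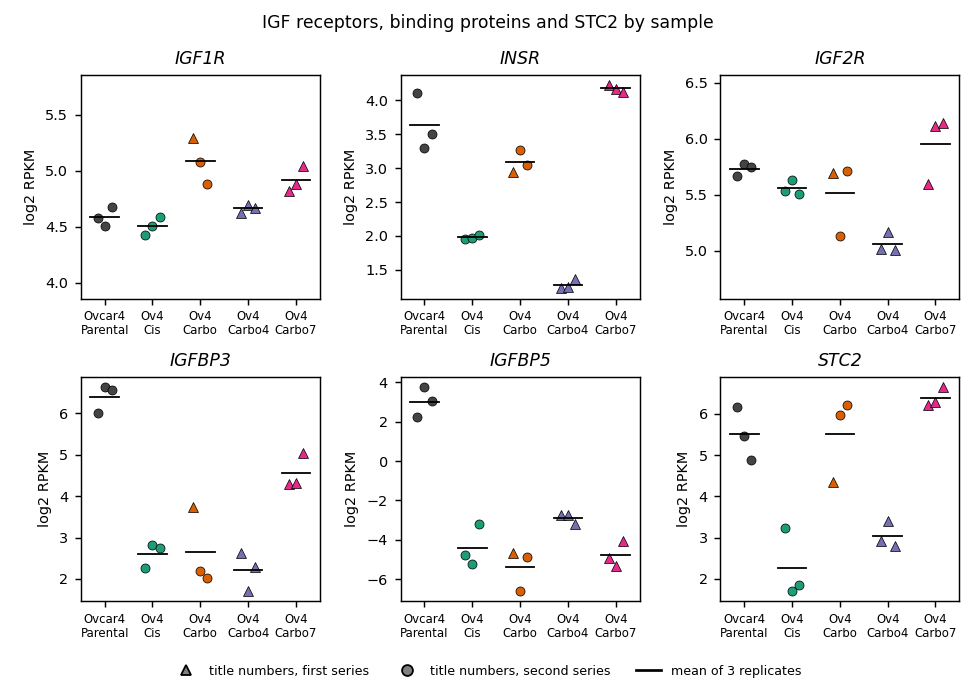
Level of 3 IGF receptors, 2 binding proteins and STC2 in the 15 samples (log2 RPKM, a separate vertical scale per gene), drawn as points by replicate with the line mean as a bar. INSR and STC2 are lowest in Ov4Cis and Ov4Carbo4, and all resistant samples lie below the 3 parental ones for IGFBP3 and IGFBP5.

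The m6A list holds proteins that write, erase and read the mark bound by IGF2BP proteins. Of 18 genes, 2 were called in any comparison, where 38.6% of all genes were. In the F-test 13 of the 18 differed among the lines, against 76.9% of all genes. ZC3H13, a writer subunit, fell by 1.32 in Ov4Cis (SE 0.17, limma adjusted p = 5.48e-05) and by 1.01 in Ov4Carbo7 (adjusted p = 3.96e-04), and WTAP, another subunit, fell in Ov4Carbo4 by 1.07 (SE 0.10, adjusted p = 7.38e-06), all against the parental line. METTL3 and METTL14, the catalytic pair, were among the 16 without a call.

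Of 8 relatives of HMGA in the HMGB and HMGN families, 3 were called in at least 1 comparison, close to the 38.6% of all genes. HMGN5, a nucleosome-binding protein, rose in all 4 resistant lines against the parental samples that they share, by 1.2 in Ov4Carbo4 (SE 0.37, limma adjusted p = 0.0229) to 3.01 in Ov4Carbo (adjusted p = 8.32e-05), from 1.23, 1.5 and 1.44 log2 RPKM. HMGB1 fell in Ov4Cis by 1.06 (SE 0.16, adjusted p = 2.43e-04), and HMGB3 was 1.34 lower in Ov4Carbo7 than in Ov4Carbo4 (SE 0.15, adjusted p = 1.43e-05).

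Among 12 imprinted genes, 9 were called in at least 1 comparison, where 38.6% of all genes were. PLAGL1, a zinc finger regulator of an imprinted network that includes IGF2, stood at 3.81 to 4.22 log2 RPKM in Ovcar4Parental and 2.42 to 2.71 in Ov4Carbo4, and fell there by 1.53 (SE 0.22, limma adjusted p = 1.7e-04). MEST, a mesoderm gene expressed from the paternal allele, fell in Ov4Cis by 1.09 (SE 0.14, adjusted p = 7.92e-05) and in Ov4Carbo7 by 1.56 (adjusted p = 4.34e-06). KCNQ1OT1, the antisense RNA of the imprinted domain next to IGF2, was 1.53 lower in Ov4Carbo4 than in Ov4Carbo (SE 0.55, adjusted p = 0.0395), where Ov4Carbo replicate 2 was high at 5.05 against 3.15 and 2.85.

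Of 12 other oncofetal antigens 4 could be read, and all 4 were called in at least 1 comparison, where 38.6% of all genes were. TPBG, the trophoblast glycoprotein 5T4, stood at 2.02, 2.29 and 2.39 log2 RPKM in Ovcar4Parental, 3.53, 3.755 and 3.52 in Ov4Cis and -1.92, -3.02 and -1.84 in Ov4Carbo4. It rose by 1.37 in Ov4Cis (SE 0.28, limma adjusted p = 0.00185) and fell in Ov4Carbo4 by 4.49 (adjusted p = 2.04e-07) against the parental line. FOLR1, the folate receptor targeted in ovarian cancer, fell in Ov4Cis by 3.24 (SE 0.30, adjusted p = 3.53e-06) and in Ov4Carbo4 by 2.94 (adjusted p = 1.02e-05). PEG10, which is also in the imprinted list, was 1.13 lower in Ov4Carbo7 than in Ov4Carbo (SE 0.25, adjusted p = 0.00429).

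**Figure D5:**
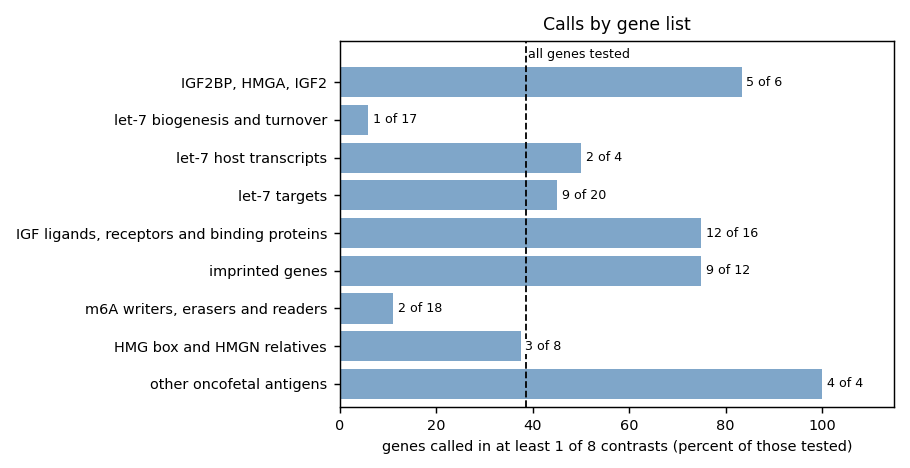
Share of the genes of each list called in at least 1 of 8 comparisons (horizontal axis, percent), with counts beside the bars and the share among all genes tested, 38.6%, as a dashed line. The let-7 processing list, with 1 of 17, and the m6A list, with 2 of 18, lie under the line, and the 6 oncofetal genes, with 5 called, lie above it.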

How the data were processed

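Expression was read from 1 deposited table of log2 RPKM values, which the authors made with conditional quantile normalization, as its name states. The submitters' processing notes name BWA 0.7.15-r1140, HTSeq and the build hg19 (GRCh37), with no roles. The threshold in the table's name, the annotation and the strand setting are not given in the sources used here. Ensembl identifiers were given symbols from a reference table, which named 16448 of 16604 genes. Sequences came from RefSeq (GRCh38.p14) and GENCODE v29 (GRCh38), and no gene coordinate of the authors' build is given.

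With limma 3.58.1 (R 4.3.3) the 16604 genes were fitted with 1 coefficient per line over 15 samples. Two-sided p-values had Benjamini-Hochberg adjustment within each of 8 contrasts. The model was tested on simulated data. The 6 genes and the lists were chosen with earlier results of these data known. From each list the text names the 3 called genes of widest range of line means whose highest mean was at least log2 RPKM 1, besides INSR, IGF1R and LIN28A. IRS1, IRS2, IGDCC3 and MYCN are also named, outside that rule. The highest line means of IGDCC3 (0.52) and MYCN (0.04) were below that level. MIRLET7BHG, HUWE1, TUT4, IGF2R, METTL3 and METTL14, DROSHA, DICER1 and DIS3L2, and the copies and neighbours of HMGA1, HMGA2 and IGF2BP3, were added after their values were seen. The most alike genes had the 2 highest Pearson correlations with a member. Among these genes 1 is not reported here, nor is 1 cell type marker.

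Alternatives tried were median centring, quantile normalization, a variance trend, a filter at mean log2 RPKM 1, log2(RPKM + 1), fits restricted to the 2 lines compared, the replicate number as a block, the title series as a covariate, a stricter adjusted p (under 0.01), each replicate left out in turn and, chosen after seeing the data, Ov4Carbo replicate 1 alone as reference. Figures were drawn with Python 3.11.15 and matplotlib 3.10.9.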

Additional observations from a re-analysis of the deposited data

Results flagged for a closer look

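The difference from the shared parental line was not the same in Ov4Cis and Ov4Carbo for 3 genes, by the limma test of the difference itself. Drug and line cannot be told apart here. IGF2BP1 was 1.63 log2 units lower in Ov4Cis (log2 fold change -1.63, adjusted p = 0.00788), HMGA1 was also lower (-1.38, adjusted p = 1.11e-04), and IGF2 was higher (2.97, adjusted p = 3.06e-05). All 3 values of each line were separate from the 3 of the other for these genes, as was so for 41.0% of all genes. The clones grown from Ov4Carbo differed in their change from that line for 2 genes. IGF2BP1 was higher in Ov4Carbo7 than in Ov4Carbo4 (4.10, adjusted p = 5.2e-06), and IGF2 was lower (-2.39, adjusted p = 8.48e-05). Neither overlapped, as was so for 67.3% of all genes. The IGF2BP1 difference between Ov4Cis and Ov4Carbo was not called when only these groups entered the fit (limma adjusted p = 0.0531). On the log2(RPKM + 1) scale neither it (-0.46) nor the IGF2 difference between these lines (0.41) was called.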

How the results depend on the processing

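Of 400 values of the 17 called changes of the 6 genes under the alternatives fitted, 374 kept direction and call. Not all 400 were separate checks. The fold change is unaffected when the replicate left out belongs to a line outside the comparison. HMGA1 in Ov4Cis against the parental line stayed at -1.3811 without Ov4Carbo replicate 1. Median centring gave -1.3804, with sample medians of 2.7684 to 2.7699. IGF2BP1 and IGF2 have no value with the filter at mean log2 RPKM 1, so these lost calls are not among the 400. Leaving out each replicate in turn, the number of genes called was 3 throughout for Ov4Cis, 0 to 1 for Ov4Carbo, 2 to 3 for Ov4Carbo4 and 2 throughout for Ov4Carbo7 against the parental line. It was 2 for Ov4Carbo4 and 1 to 2 for Ov4Carbo7 against Ov4Carbo, 2 between the clones and 3 to 4 for Ov4Cis against Ov4Carbo.

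With a filter at mean log2 RPKM 1, IGF2BP1 and IGF2 leave the fit, and the counts were 0 for Ov4Carbo, 1 for Ov4Carbo4 and 1 for Ov4Carbo7 against the parental line, 1 for Ov4Carbo4 and 0 for Ov4Carbo7 against Ov4Carbo, 0 between the clones and 1 for Ov4Cis against Ov4Carbo. On the log2(RPKM + 1) scale they were 0 for Ov4Carbo and 0 for Ov4Carbo4 against the parental line, 1 for Ov4Carbo4 against Ov4Carbo, 1 between the clones and 1 for Ov4Cis against Ov4Carbo. IGF2 lost all its calls there, and IGF2BP2 in Ov4Carbo4 against the parental line just missed 1 log2 unit. Ov4Cis against the parental line gave 2 with the filter and 2 on this scale, both without IGF2. Ov4Carbo against the parental line gave 0 with only the groups compared, with a title series term and at an adjusted p under 0.01. Ov4Carbo7 against Ov4Carbo gave 2 with the title series term, HMGA2 being added at -1.15. The change was the same with replicate 1 of Ov4Carbo alone as reference, since only Ov4Carbo has samples in both series. The 2 settings are therefore not separate checks, and changes moved by the term rest on that 1 replicate. With the title series term calls were also gained by HMGA2 in Ov4Carbo4 against the parental line (-1.11), by IGF2BP1 in Ov4Carbo4 against Ov4Carbo (-1.29) and by IGF2BP2 in Ov4Cis against Ov4Carbo (-1.02).

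The direction of 1 called change turned. With the title series term IGF2BP1 in Ov4Carbo4 against the parental line was -0.32, and the cause was not tested. The other reversals were of changes that were not called. With that term IGF2BP2 (0.050), HMGA1 (0.22) and IGF2 (0.84) in Ov4Carbo7 against the parental line turned. HMGA1 in Ov4Carbo7 against Ov4Carbo also turned (0.10), which is the same change as against replicate 1 alone. Over the fits that leave out 1 replicate, IGF2BP1 ran from -0.46 to 0.19 in Ov4Cis against the parental line and from -0.69 to 0.22 in Ov4Carbo4 against Ov4Carbo. HMGA1 ran from -0.21 to 0.12 in Ov4Carbo against the parental line and from -0.25 to 0.076 in Ov4Carbo7 against Ov4Carbo, and IGF2 from -0.34 to 0.24 in Ov4Carbo7 against the parental line. Quantile normalization turned IGF2 in Ov4Carbo7 against Ov4Carbo (-0.38).

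Whether the replicate numbers of the labels pair the samples was not settled, since pairs with different numbers were not compared. Replicate 1 of Ovcar4Parental shared deviations with that of Ov4Cis (correlation 0.44) and Ov4Carbo7 (0.25), and went against that of Ov4Carbo (-0.39). Deviations from the line mean correlated over 0.1 in 11 of 30 same-numbered pairs (-0.39 to 0.44), and with the replicate block the counts of genes called were the same in all 8 comparisons. Depth is unknown, so no counting error can be given for the low values of IGF2 and IGF2BP1.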

Other observations

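Genes with many let-7 seed matches were also set side by side, a grouping made after the values were seen and not tested. Of 12859 genes with a principal 3′ untranslated region, 29 held 3 or more matches of CTACCTC, HMGA2 and IGF2BP1 among them. In Ov4Carbo4 against the parental line 7 of the 29 were called higher and 1 lower (27.6%, against 16.0% of all genes with such a region), with a median change of 0.34 log2 units against 0.05. In Ov4Carbo4 against Ov4Carbo 5 were higher and 0 lower (17.2%, against 14.5%), and the median was 0.05 against 0.03. In Ov4Carbo7 against the parental line 3 were higher and 6 lower (31.0%, against 17.6%), with a median of -0.19 against 0.01. Ov4Cis had 2 higher and 3 lower (17.2%, against 16.8%) and Ov4Carbo 3 and 3 (20.7%, against 13.1%), both against the parental line.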
